A study of Mus musculus with 33 samples.

Results

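The posterior hypothalamus (PH), which holds the arcuate nucleus and its neurons for reproduction and metabolism, was compared between mice 4 months and 14 days after ovariectomy (OVX), the removal of both ovaries. Of the 33 bulk RNA-seq libraries of the study, 12 belong to this comparison, 6 at 4 months and 6 at 14 days, chosen by the tissue and the time in their labels. The 4 PH libraries of intact mice shared the fit and served as a reference level. All mice were wild-type C57BL/6 females. They were ovariectomized under isoflurane, with Buprenex SR and meloxicam, at 3 to 4 months of age, so mice of the 4-month group were 7 to 8 months old, and time after OVX and age cannot be told apart. The intact mice were killed in diestrus before surgery, and no intact mice of the later age were analysed here. Control titles read sham, whereas another label and the methods call these mice intact. Nothing in the sources used here says that each library came from a separate mouse, so *P* values measure the spread between these libraries, which may be technical. The comparison addresses what differs between a short and a long period without ovarian hormones.

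The ovaries are the main source of circulating estradiol and progesterone, and receptors for both are present in hypothalamic neurons and glia. Microglia, the resident macrophages of the brain, make the C1q subunits that start the classical complement pathway, and astrocytes and other glia make C4, the component that C1s splits next. Immediate early genes are transcribed within minutes of neuronal firing, and reactive astrocytes, oligodendrocyte precursors and newly formed oligodendrocytes each carry their own marker genes.

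The values are linear and were normalized by the authors. They hold no read counts, so the read depth behind each value is unknown and no counting error is given. Genes without measurable expression lie near a floor of 22.1, which compresses the fold changes of weakly expressed genes. Genes were kept for testing if 4 or more PH libraries had values of 2 times the floor or above, which left 21956 genes, 16106 of them protein-coding. Differences are log2 fold changes, 4 months minus 14 days, from limma with the 3 PH groups and the first surrogate variable (SV1), a pattern shared by many genes that the groups do not explain. A gene was called at a Benjamini-Hochberg adjusted *P* under 0.05.

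The libraries at 14 days and at 4 months fell into 2 batches of 3 each, as the labels give them, and the intact ones into 2 batches of 2. Replicate 5 at 14 days, in batch 2, stood apart before any gene was compared. Its deposited values added up to 72.9 in mega units against 47.4 to 54.5 in the other 15 PH libraries, mitochondrially encoded genes made up 33.4% of that sum against 6.87% to 15.1%, and its SV1 was 0.79 against at most 0.19. Within a group, the log2 values of 2 libraries correlated at a Pearson r of 0.96 to 0.99 across genes, which are not independent replicates. All 12 neuron markers, all 16 markers of homeostatic microglia, all 12 of homeostatic astrocytes and all 12 of mature myelin reached 2 times the floor in every one of the 12 libraries. Since the tissue is a bulk dissection, more cells of a type and more RNA per cell cannot be told apart.

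Few genes passed the test. Of the 21956 genes tested, 2 were called, 0.00911%, both higher at 4 months: the protein-coding gene *C4b* and the transcribed pseudogene *Pisd-ps1*. At an unadjusted *P* under 0.05, 456 genes were higher (2.08%) and 441 lower (2.01%). Among protein-coding genes 640 had such a *P*, where uniform *P* values would give 805. In 28 genes (0.128%) every 4-month library lay above every 14-day library, and in 24 genes (0.109%) every 4-month library lay below. The median log2 fold change over all genes was -0.0077, and 52.8% of genes were below 0.

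**Figure D1:**
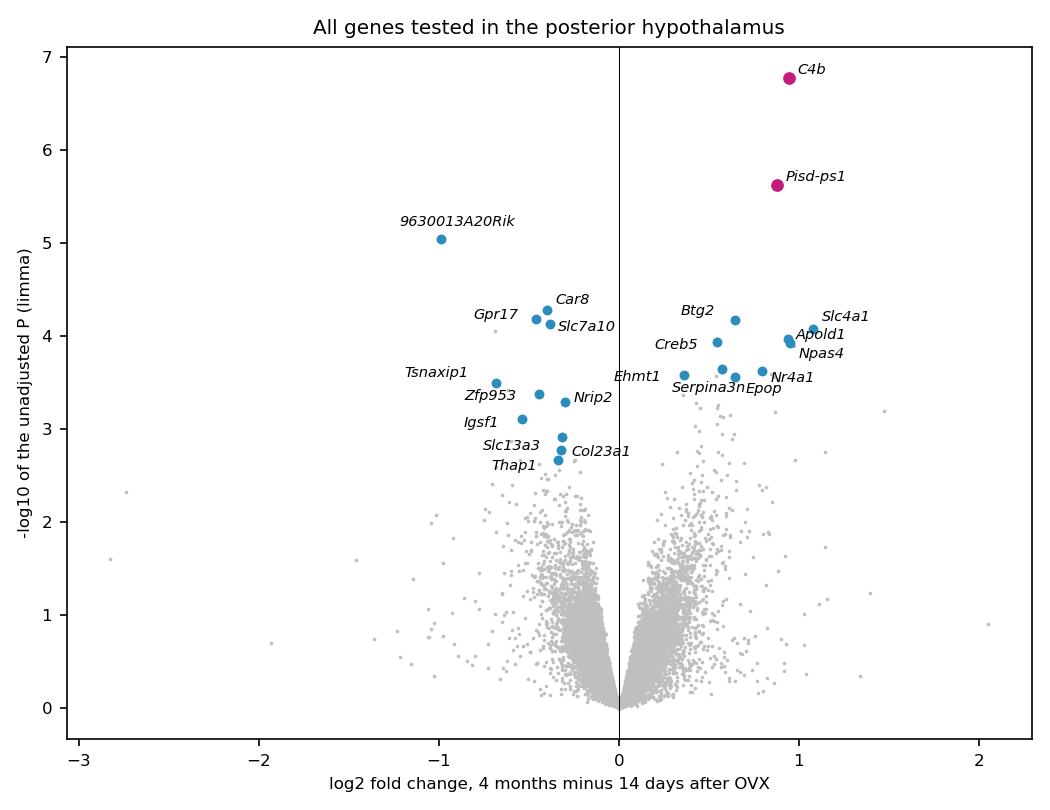
Each point is 1 of the 21956 genes tested in the PH, with its log2 fold change (4 months minus 14 days after OVX) on the x axis and -log10 of the unadjusted limma *P* on the y axis. The 2 large points are the genes called, *C4b* and *Pisd-ps1*, and the smaller coloured points are the protein-coding genes with the next smallest *P* in each direction and *9630013A20Rik*, of which none passed the adjusted threshold.

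*C4b* (ENSMUSG00000073418, chr17:34947354-34962912 on the minus strand of GRCm39) encodes complement component C4, which tags surfaces for clearance once it is split. Its deposited values in replicates 1 to 6 were 1538, 1370.2, 1639, 1609.8, 732 and 1765 at 14 days and 2908, 2706, 3207, 2497, 3620.2 and 3742 at 4 months. The 4-month libraries lay above all of the 14-day libraries, and the lowest of them also lay above the 4 intact libraries, at 1193 to 1598. The mean was 1442 ± 371 (SD, n = 6) at 14 days and 3113 ± 499.9 (SD, n = 6) at 4 months. The log2 fold change was 0.95 (SE 0.12), a 1.93-fold difference, with an adjusted *P* of 0.00373. It was 0.96 within batch 1, 1.34 within batch 2 and 0.93 without replicate 5 at 14 days, where the adjusted *P* was 0.000805. *C4b* was called whichever of the 16 libraries was left out, with adjusted *P* values of 2.07e-04 to 0.0384, and in 28 of the 33 alternative fits in all. The call was lost in 5 of them, with adjusted *P* values of 0.0616 to 0.769: batch in place of SV1, no covariate, batch 2 alone, a replicate block without SV1, and no filter on low values. In batch 1 alone *C4b* lay just under the threshold.

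*C4b* has a close copy, *C4a*, next to it on chromosome 17, and 42.0% of the words of 31 bases in *C4b* transcripts also occur in *C4a* transcripts, so reads could be split between them. The 14-day libraries had *C4a* values of 34.1 to 143 (median 84.7) and the 4-month libraries 61.2 to 149 (median 90.9). These ranges overlapped widely, and the log2 fold change of *C4a* was 0.13 (SE 0.27), with an unadjusted *P* of 0.63. *C4a* was chosen for its likeness to *C4b* and after its values were seen.

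The promoter of *C4b* is shown because *C4b* was the protein-coding gene called. It covers 250 bases before and 50 after the start of the canonical transcript in GENCODE M39, chr17:34962863-34963162 (GRCm39, minus strand), printed 5′ to 3′ with the match to an NF-kB site in capitals.
C4b: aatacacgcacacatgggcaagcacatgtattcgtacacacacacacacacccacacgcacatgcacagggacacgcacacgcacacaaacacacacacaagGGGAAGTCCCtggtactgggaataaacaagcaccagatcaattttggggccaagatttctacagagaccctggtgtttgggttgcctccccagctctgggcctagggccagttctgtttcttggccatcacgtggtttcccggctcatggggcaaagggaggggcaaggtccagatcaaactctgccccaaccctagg
The match starts 148 bases before the start site, and 4.86% of the 21751 protein-coding promoters of that length hold 1 on either strand. No match was found to TGANTCA (AP-1, in 7.14% of promoters), TTCNNNGAA (the GAS element, 8.81%) or the core of the ISRE (3.83%), each searched on both strands. These are matches of letters, not sites shown to be bound.

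*Pisd-ps1* (ENSMUSG00000082286, chr11:3076006-3081004, plus strand) is a transcribed pseudogene of *Pisd*, the enzyme that makes phosphatidylethanolamine in mitochondria. It ranged from 1476 to 3675 (median 2641) at 14 days and from 3444 to 6625 (median 5623) at 4 months, so that 5 of 6 libraries at 4 months lay above all of the 14-day libraries and 1 did not. The log2 fold change was 0.88 (SE 0.13), with an adjusted *P* of 0.0264, and 0.89 in batch 1 and 1.30 in batch 2. This call was less stable than that of *C4b*, since it was kept in 11 of the 33 alternative fits. It was kept when 6 of the 16 libraries were left out singly and lost with each of the other 10. Adjusted *P* values over those 16 limma fits were 5.88e-04 to 0.123. The 22 fits that lost it, at adjusted *P* values of 0.0501 to 0.991, included SV1 with batch, no covariate, either batch alone and both replicate blocks. The sequence of *Pisd-ps1* shares 87.8% of its words of 31 bases with *Gm74511*, a long noncoding RNA that M39 places over the same interval and that is not among the rows of the deposited table, 23.8% with *Pisd-ps2* and 20.1% with *Pisd*, so its level is uncertain. *Pisd-ps2* had a log2 fold change of 0.54 (SE 0.12, adjusted *P* = 0.302) and *Pisd* of 0.10 (SE 0.068, unadjusted *P* = 0.146), both looked up after the values of *Pisd-ps1* were seen. The level of *Pisd-ps2* is uncertain too, since 96.5% of its words also occur in *Gm64819*, a long noncoding RNA that overlaps it.

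The C1q genes lay on the same side as *C4b*, with smaller differences. Of the 20 genes of the list of classical complement and its regulators, 1 was called, 4 were higher at an unadjusted *P* under 0.05 and none was lower, beside 2.08% and 2.01% of all genes. The median log2 fold change of the list was 0.11, 0.14 in batch 1, 0.067 in batch 2 and 0.13 without replicate 5 at 14 days. The 4 genes were *C4b* and the 3 chains of C1q, the molecule that recognizes targets for the pathway. *C1qa* ranged from 732 to 1409 (median 1003) at 14 days and from 1177 to 1674 (median 1426) at 4 months, with a log2 fold change of 0.26 (SE 0.08) and an unadjusted *P* of 0.00477. *C1qb* ranged from 851 to 1247 (median 1015) and from 914 to 1710.2 (median 1436), and its log2 fold change was 0.25 (SE 0.095). *C1qc* ranged from 477 to 1248 (median 979) and from 902 to 1596 (median 1294), at a log2 fold change of 0.19 (SE 0.085). All 3 overlapped between the times, none had an adjusted *P* under 0.05, and for each the lowest 14-day value was that of replicate 5. C3, the component downstream of C4, had a log2 fold change of 0.26 (SE 0.27) and an unadjusted *P* of 0.355. It ranged from 218 to 736 at 14 days and from 238 to 473 at 4 months, and its highest value was that of replicate 5 at 14 days.

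Other microglial genes had small differences. Of 16 homeostatic microglia genes, 12 had a log2 fold change above 0 and 4 below, where 52.8% of all genes were below 0. At an unadjusted *P* under 0.05, 1 was higher (*C1qa* again). The median was 0.12, with 0.11 in batch 1 and 0.15 in batch 2. *Cx3cr1*, the fractalkine receptor, had a log2 fold change of 0.13 (SE 0.074), and *Tmem119*, a surface marker of microglia, of 0.14 (SE 0.079). *Aif1*, which encodes IBA1, had one of 0.077 (SE 0.17), with 14-day values of 128 to 241 and 4-month values of 155 to 269.8 that covered nearly the same range. Of 20 disease-associated microglia genes none had an unadjusted *P* under 0.05, and the median was 0.084. The smallest *P* in that list belonged to *Tspo*, a mitochondrial membrane protein used as a marker of glial activation, at 0.26 (SE 0.15) with an unadjusted *P* of 0.0925. It was followed by *Gpnmb* at 0.40 (SE 0.23) and the lysozyme gene *Lyz2* at 0.24 (SE 0.14).

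Among astrocyte genes, *Serpina3n*, which encodes a secreted protease inhibitor of reactive astrocytes, stood at the head. It ranged from 813 to 1089 (median 910.0) at 14 days and from 1001 to 1689 (median 1457) at 4 months, with only the lowest 4-month library inside the range of the 14-day libraries. Its log2 fold change was 0.57 (SE 0.13), with an adjusted *P* of 0.302, and it was 0.38 in batch 1 and 0.76 in batch 2. Of the 19 reactive astrocyte genes tested, 2 were higher at an unadjusted *P* under 0.05 and none was lower, beside 2.08% and 2.01% of all genes. The 2 were *Serpina3n* and *Ggta1*, and the median of the list was 0.14. *Gfap*, the intermediate filament of astrocytes, ranged from 6060.4 to 12025 (median 8052) at 14 days and from 6325 to 14129 (median 10219.9) at 4 months, overlapping over most of both ranges, at a log2 fold change of 0.31 (SE 0.20) and an unadjusted *P* of 0.141. *Vim*, another intermediate filament, had a log2 fold change of 0.10 (SE 0.11). None of the 12 homeostatic astrocyte genes had an unadjusted *P* under 0.05, and their median was 0.042.

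**Figure D2:**
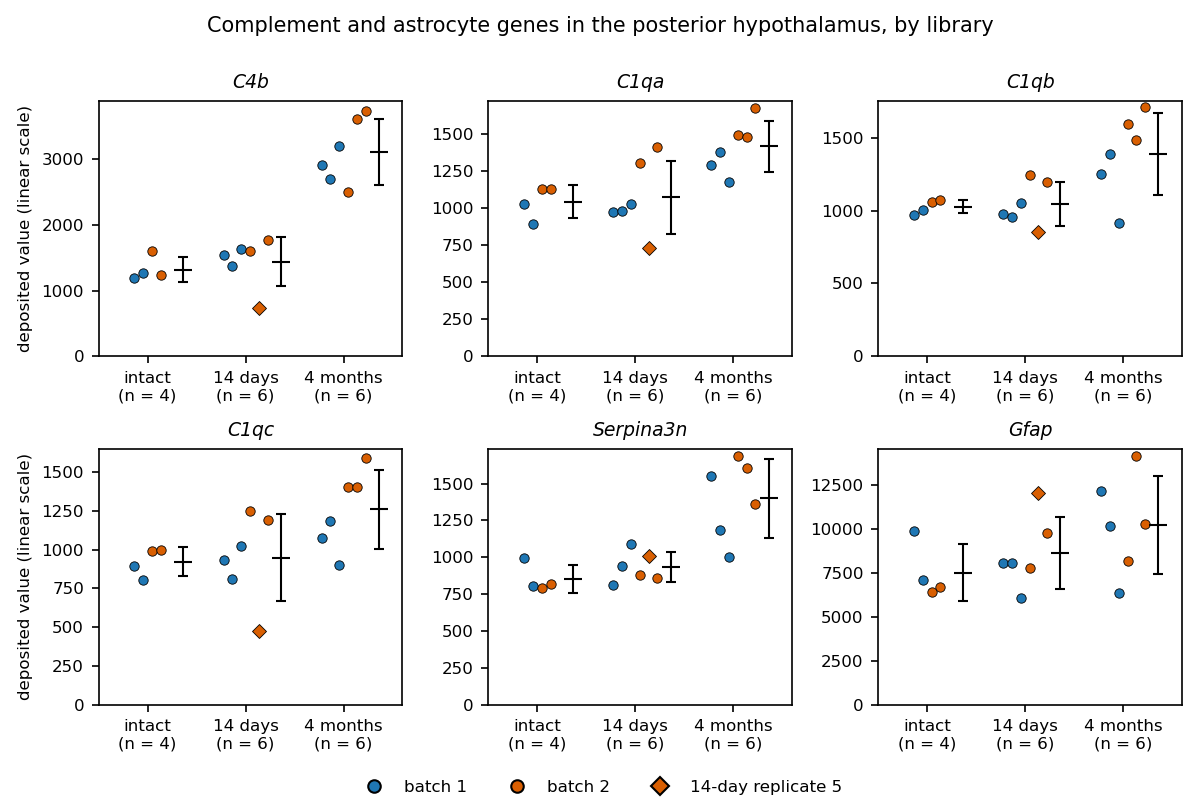
Deposited values (linear scale, y axis from 0) of *C4b*, the 3 C1q genes, *Serpina3n* and *Gfap* in each PH library, by group on the x axis, with the mean and SD beside the points and the batches in 2 colours. *C4b* is the gene whose 4-month libraries all lie above the 14-day and intact libraries, while the other 5 overlap between 14 days and 4 months, and the diamond marks replicate 5 at 14 days.

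Several immediate early genes lay higher at 4 months, without any call. Of the 20 in the list, 6 were higher at an unadjusted *P* under 0.05 and 1, *Fosl2*, was lower, beside 2.08% and 2.01% of all genes. In 3 of the 20 every 4-month library lay above every 14-day library, beside 0.128% of all genes. The median of the list was 0.17, 0.26 in batch 1 and 0.17 in batch 2, against -0.0077 over all genes. *Btg2*, an antiproliferative gene induced by activity, ranged from 334 to 524 (median 454) at 14 days and from 619 to 962 (median 717) at 4 months, with no overlap. Its log2 fold change was 0.64 (SE 0.13), with an adjusted *P* of 0.214. *Npas4*, a transcription factor that calcium entry induces in neurons, ranged from 112 to 189.7 (median 133) and from 221 to 396 (median 285), also with no overlap. Its log2 fold change was 0.95 (SE 0.20), with an adjusted *P* of 0.215. *Nr4a1*, an orphan nuclear receptor, ranged from 350.0 to 672 (median 468) and from 726 to 987 (median 949), at a log2 fold change of 0.80 (SE 0.17) and an adjusted *P* of 0.302. Without replicate 5 at 14 days, which had the lowest of the 14-day values for *Btg2* alone of these 3, their log2 fold changes were 0.64, 0.96 and 0.80.

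The intact libraries spread across both times for these genes. In the intact mice *Btg2* ranged from 386 to 626, *Npas4* from 119 to 222 and *Nr4a1* from 426 to 972, so that the highest intact libraries reached the 4-month range. The remaining members past an unadjusted *P* of 0.05 were *Junb* at 0.69 (SE 0.19), *Dusp1* at 0.38 (SE 0.18) and *Ier2* at 0.32 (SE 0.14), while *Fosl2* stood at -0.37 (SE 0.15). *Fos*, the gene most used as a marker of recent firing, went the other way in value without passing the test. It ranged from 848 to 1561 (median 989) at 14 days and from 669 to 1296 (median 868) at 4 months, at a log2 fold change of -0.29 (SE 0.24) and an unadjusted *P* of 0.248. *Egr1*, another marker of firing, had a log2 fold change of -0.019 (SE 0.19). Time of day and handling at death, to which these genes can respond, are not given in the sources used here, and their part in the result was not tested.

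The promoters of *Btg2* and *Nr4a1* are shown as examples, chosen because they hold matches to the cAMP response element (CRE), so they say nothing of how often other genes of the list hold one. Each runs from 250 bases before to 50 after its canonical start in GRCm39. They are chr1:134006809-134007108 (minus strand) for *Btg2* and chr15:101164410-101164709 (plus strand) for *Nr4a1*. Capitals mark the full CRE TGACGTCA and its shorter form TGACG on either strand.
Btg2: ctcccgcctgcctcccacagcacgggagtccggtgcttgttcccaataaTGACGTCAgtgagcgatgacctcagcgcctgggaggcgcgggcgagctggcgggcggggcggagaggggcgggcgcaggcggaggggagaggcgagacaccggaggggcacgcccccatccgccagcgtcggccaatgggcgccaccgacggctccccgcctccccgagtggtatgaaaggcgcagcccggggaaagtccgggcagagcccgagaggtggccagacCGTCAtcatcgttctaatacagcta
Nr4a1: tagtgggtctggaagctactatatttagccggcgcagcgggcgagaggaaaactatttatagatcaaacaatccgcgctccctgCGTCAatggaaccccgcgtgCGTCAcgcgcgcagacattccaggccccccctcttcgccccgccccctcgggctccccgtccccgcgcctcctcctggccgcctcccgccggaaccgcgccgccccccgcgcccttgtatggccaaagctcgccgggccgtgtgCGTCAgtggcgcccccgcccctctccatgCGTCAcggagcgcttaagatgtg
The full CRE was found once in *Btg2*, 201 bases before the start site, and in 2.45% of all promoters. The short form, which the full one contains on both strands, matched 3 times in *Btg2* and 4 times in *Nr4a1*, and 22.6% of all promoters hold it. Neither window holds a CArG box, the serum response element core found in 1.54% of promoters. The promoter of *Npas4*, searched in the same way, held no full CRE, no short form and no CArG box.

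*Apold1*, an endothelial early response gene, also did not overlap. It ranged from 243 to 350.3 (median 290.0) at 14 days and from 408 to 819 (median 576) at 4 months, at a log2 fold change of 0.94 (SE 0.19) and an adjusted *P* of 0.215. Its values in the batches were 1.11 and 0.88. Of the 17 genes of endothelial and mural cells, 2 were higher at an unadjusted *P* under 0.05, beside 2.08% of all genes. They were *Vwf* (von Willebrand factor) at 0.62 (SE 0.22) and the VEGF receptor *Flt1* at 0.33 (SE 0.13), and the median of the list was 0.083.

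Genes that glucocorticoids induce also lay higher as a list. The median of the list was 0.17, 0.13 in batch 1 and 0.37 in batch 2. Of its 16 genes, 5 were higher at an unadjusted *P* under 0.05 and none was lower, beside 2.08% and 2.01% of all genes. They were *Sult1a1*, a sulfotransferase, at 0.56 (SE 0.14), *Depp1*, an autophagy regulator, at 0.82 (SE 0.25), the kinase *Sgk1* at 0.54 (SE 0.21), the lipid droplet gene *Plin4* at 0.59 (SE 0.25) and the mTOR inhibitor *Ddit4* at 0.28 (SE 0.13). Only *Depp1* did not overlap, beside 0.128% of all genes that were higher at 4 months without overlap. It ranged from 21.4 to 75.2 at 14 days and from 75.7 to 189.6 at 4 months, and its lowest 14-day value was at the floor. *Sgk1* ranged from 1469.9 to 2273 (median 1855) at 14 days and from 1952 to 3869 (median 2865) at 4 months, and all of the 14-day libraries lay below the intact range of 2287 to 4625. The 2 members most used as readouts of the glucocorticoid receptor, *Fkbp5* at 0.07 (SE 0.14) and *Tsc22d3* at -0.0075 (SE 0.09), had unadjusted *P* values of 0.631 and 0.935. Of 17 circadian clock genes, 1 was higher at an unadjusted *P* under 0.05, *Ciart* at 0.29 (SE 0.12), and the median was -0.011.

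In the oligodendrocyte lineage 2 transcripts stood out, both with lower values at 4 months. *Gpr17*, a receptor of precursors that are about to mature (chr18:32076050-32082888), ranged from 1287 to 2972 (median 2534) at 14 days and from 1589 to 2333 (median 1989) at 4 months. Apart from replicate 5 at 14 days, at 1287, each 14-day library lay above each 4-month library. The log2 fold change was -0.46 (SE 0.09), with an adjusted *P* of 0.214, and without replicate 5 it was -0.47 (adjusted *P* = 0.0729). It was -0.51 in batch 1 and 0.0065 in batch 2, where replicate 5 is 1 of 3 libraries. The long noncoding RNA *9630013A20Rik* (chr14:84696079-84713864, minus strand), named after its values were seen and known from newly formed oligodendrocytes, ranged from 147 to 312 (median 223) at 14 days and from 66.3 to 138 (median 84.9) at 4 months, with no overlap. The log2 fold change was -0.99 (SE 0.16), with an adjusted *P* of 0.066, the smallest among genes that were lower. It was -0.77 in batch 1 and -1.61 in batch 2, and the intact libraries, at 205 to 265, lay above all of the 4-month libraries.

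Other markers of the same stages had smaller differences. Of the 12 genes of precursors and newly formed oligodendrocytes, 1 (*Gpr17*) was lower at an unadjusted *P* under 0.05 and none was higher, with a median of 0.0032. The log2 fold change was 0.028 (SE 0.12) for *Enpp6*, 0.071 (SE 0.12) for *Bcas1* and -0.15 (SE 0.29) for *Bmp4*. None of the 12 genes of mature myelin had an unadjusted *P* under 0.05, and their median was -0.0089.

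Red cell genes had the highest median of the 29 gene lists. Of 9 tested, 7 were higher at an unadjusted *P* under 0.05 and none was lower, beside 2.08% and 2.01% of all genes. The median was 0.75, with 0.74 in batch 1, 0.55 in batch 2 and 0.72 without replicate 5 at 14 days. *Slc4a1*, the anion exchanger of red cells, ranged from 36.3 to 91.6 (median 42.5) at 14 days and from 46.2 to 123 (median 94.4) at 4 months, at a log2 fold change of 1.08 (SE 0.22) and an adjusted *P* of 0.214. Its 14-day maximum was replicate 5, and the next 14-day library stood at 46.3. *Alas2*, the heme synthesis enzyme of red cell precursors, ranged from 135 to 264 (median 224) and from 265 to 642 (median 369.6), with no overlap, at a log2 fold change of 0.87 (SE 0.21). The hemoglobin genes stood at 0.83 for *Hba-a1*, 0.75 for *Hba-a2*, 0.72 for *Hbb-bs* and 0.80 for *Hbb-bt*, but each shares 48.3% to 83.3% of its words of 31 bases with another gene, so they are not independent of each other. Mean log2 values of the list per library were 9.36 to 9.71 at 14 days and 9.57 to 10.85 at 4 months, overlapping in part. In the intact libraries *Hbb-bs* ranged from 2714 to 3668, below all of the 14-day libraries, at 4092 to 6217. Intact values of *Slc4a1*, at 25.8 to 50.1, and of *Alas2*, at 127 to 188, overlapped those at 14 days. How much blood was left in each dissection is not in the labels, and its part in the other differences was not tested.

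**Figure D3:**
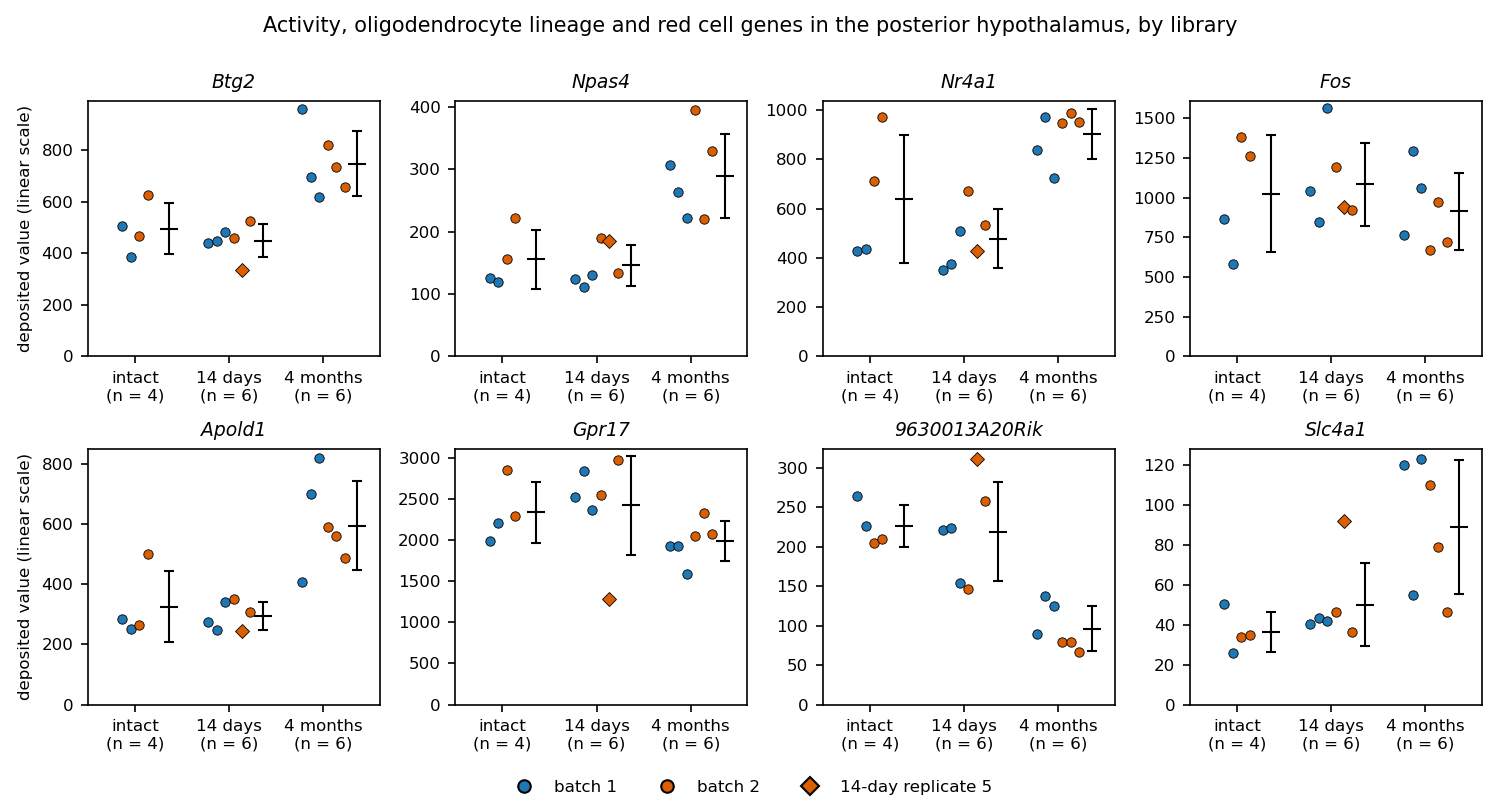
Deposited values (linear scale, y axes from 0) of 5 early response genes, 2 oligodendrocyte lineage transcripts and the red cell gene *Slc4a1* in each PH library, by group on the x axis, with the mean and SD beside the points and the batches in 2 colours. *Btg2*, *Npas4*, *Nr4a1*, *Apold1* and *9630013A20Rik* do not overlap between 14 days and 4 months, *Fos* and *Slc4a1* do, and *Gpr17* overlaps through replicate 5 at 14 days (diamond).

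Interferon and MHC lists had few members past an unadjusted *P* of 0.05. Of 31 interferon-stimulated genes, 1 was higher at an unadjusted *P* under 0.05, the RNA sensor *Ifih1* at 0.30 (SE 0.13), and the median was 0.064, 0.19 in batch 1 but -0.02 in batch 2. *Rsad2* followed at 0.43 (SE 0.24) and *Parp14* at 0.29 (SE 0.23). None of the 17 genes of MHC class I and antigen processing had an unadjusted *P* under 0.05, with a median of 0.076. The immunoproteasome subunit *Psmb9* had the smallest *P* of that list, at 0.36 (SE 0.23) with an unadjusted *P* of 0.124. Of 8 MHC class II genes, the protease *Ctss* alone was higher at an unadjusted *P* under 0.05, at 0.21 (SE 0.087). Some members varied far more between libraries than between times, such as the GTPase *Gbp2*, at 229 to 877 at 14 days and 196 to 2193 at 4 months.

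Targets of NF-kB lay on both sides. Of 20 tested, 4 were higher and 2 lower at an unadjusted *P* under 0.05, beside 2.08% and 2.01% of all genes. The higher ones were the adhesion gene *Icam1* at 0.44 (SE 0.14), the mRNA decay factor *Zfp36* at 0.42 (SE 0.13) and the transcription factors *Cebpd* at 0.58 (SE 0.21) and *Cebpb* at 0.46 (SE 0.18). The lower ones were the adaptor *Traf1* at -0.68 (SE 0.20) and the adhesion gene *Vcam1* at -0.28 (SE 0.085), and the median of the list was 0.085. *Traf1* ranged from 99.3 to 385 (median 234) at 14 days and from 141 to 176 (median 169) at 4 months, so that the 4-month libraries were close together inside a wide 14-day range. *Ptgs2*, which makes prostaglandins, ranged from 70.2 to 272 and from 76.6 to 371, with no visible separation, at 0.49 (SE 0.40) and an unadjusted *P* of 0.242. The cytokine genes *Il1b*, *Tnf*, *Il6*, *Cxcl1* and *Ccl2* of this list were too low to be tested. Of 18 genes of IL6 and JAK-STAT3 signaling none had an unadjusted *P* under 0.05, with a median of 0.039 and the feedback inhibitor *Socs3* at 0.22 (SE 0.13).

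Arcuate genes of reproduction overlapped between 4 months and 14 days. Of the 17 tested none had an unadjusted *P* under 0.05, and 12 were below 0, beside 52.8% of all genes. The median was -0.078, -0.14 in batch 1 but 0.10 in batch 2. *Tac2*, which encodes neurokinin B of the KNDy neurons that drive GnRH release, ranged from 1011 to 1578 (median 1111) at 14 days and from 958 to 1309 (median 1158) at 4 months, at a log2 fold change of -0.11 (SE 0.15). *Pdyn*, the dynorphin precursor of the same neurons, had a log2 fold change of 0.011 (SE 0.14), and the neurokinin B receptor *Tacr3* of -0.051 (SE 0.11). The estrogen receptor gene *Esr1* stood at -0.22 (SE 0.11, unadjusted *P* = 0.065) and the progesterone receptor gene *Pgr* at -0.13 (SE 0.082, unadjusted *P* = 0.136). Replicate 5 at 14 days had the lowest *Esr1* value, 538, of the 12 libraries.

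*Kiss1*, the kisspeptin gene, stayed under 2 times the floor in all 16 PH libraries, at 22.1 to 31 at 14 days and 22.2 to 42.1 at 4 months, and was not tested. The overlapping gene *Gm28040* (chr1:133237565-133257465, plus strand) has 2 rows in the table, and the first was too low to be tested. In the second it ranged from 65.6 to 168 (median 101) at 14 days and from 96 to 326 (median 127) at 4 months, overlapping, against 37.1 to 40.8 in intact mice. The difference between the times was 0.34 (SE 0.24, unadjusted *P* = 0.17), 0.11 in batch 1 and 0.94 in batch 2, where the highest library, replicate 5 at 4 months, reached 326. Of its words of 31 bases, 22.5% also occur in *Golt1a*, which overlaps it, so part of its signal is uncertain. The paper reports that its coding sequence overlaps that of *Kiss1* and proposes that it encodes a form of kisspeptin. Words shared with *Kiss1* could not be counted here, since no transcript in GENCODE M39 carries that name. How signal divides between the rows of *Kiss1* and *Gm28040* is therefore unknown.

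Among 27 genes of hypothalamic nuclei and peptides, 1 was lower at an unadjusted *P* under 0.05 and none was higher, with a median of -0.0048. That gene was *Six3*, a homeobox gene of the anterior hypothalamus, at -0.41 (SE 0.14), from 1712 to 2208 (median 1843) at 14 days and from 1067 to 1832 (median 1504) at 4 months. It was followed by *Crh*, corticotropin-releasing hormone, at -0.36 (SE 0.21) and by the peptide gene *Cartpt* at 0.26 (SE 0.15). *Pomc* stood at 0.055 (SE 0.27), *Agrp* at 0.053 (SE 0.17) and *Npy* at 0.17 (SE 0.13), all with ranges that overlapped. The median of the list was -0.29 in batch 1, with 22 of 27 genes below 0, and in batch 2 it was 0.061, with 11 of 27. Over all genes, 51.6% were below 0 in batch 1 and 49.9% in batch 2.

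Cholesterol synthesis and chaperone genes shared small negative differences. All 21 genes of cholesterol synthesis had a log2 fold change below 0, beside 52.8% of all genes. At an unadjusted *P* under 0.05, 3 were lower, beside 2.01% of all genes. The median was -0.14, -0.15 in batch 1 and -0.10 in batch 2. The number below 0 was 18 in batch 1, 14 in batch 2, and 14 with batch in place of SV1, beside 51.6%, 49.9% and 50.1% of all genes. Those past an unadjusted *P* of 0.05 were *Cyp51* at -0.19 (SE 0.067), *Sc5d* at -0.14 (SE 0.06) and *Mvd* at -0.24 (SE 0.11). Mean log2 values of the list per library were 10.97 to 11.30 at 14 days and 11.01 to 11.26 at 4 months, which overlapped over most of their ranges. Of 22 heat shock and ER chaperone genes, 21 were below 0 and 3 were lower at an unadjusted *P* under 0.05, beside 2.01% of all genes. The 3 were *Dnajb1* at -0.26 (SE 0.10), *Sdf2l1* at -0.27 (SE 0.12) and *Hsph1* at -0.22 (SE 0.10). The median of the list was -0.13, with 21 genes below 0 in batch 1 and 13 in batch 2.

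Mitochondrially encoded genes, whose share set replicate 5 at 14 days apart, had lower values at 4 months. Of the 13, 12 were below 0, beside 52.8% of all genes, and 1, *mt-Atp6*, was lower at an unadjusted *P* under 0.05, at -0.28 (SE 0.10). The median was -0.10, -0.04 in batch 1 and -1.26 in batch 2, which holds that library, and -0.068 without it. Of 14 senescence and p53 target genes none had an unadjusted *P* under 0.05, with a median of 0.017, and of 12 neuron markers none, with a median of -0.059.

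**Figure D4:**
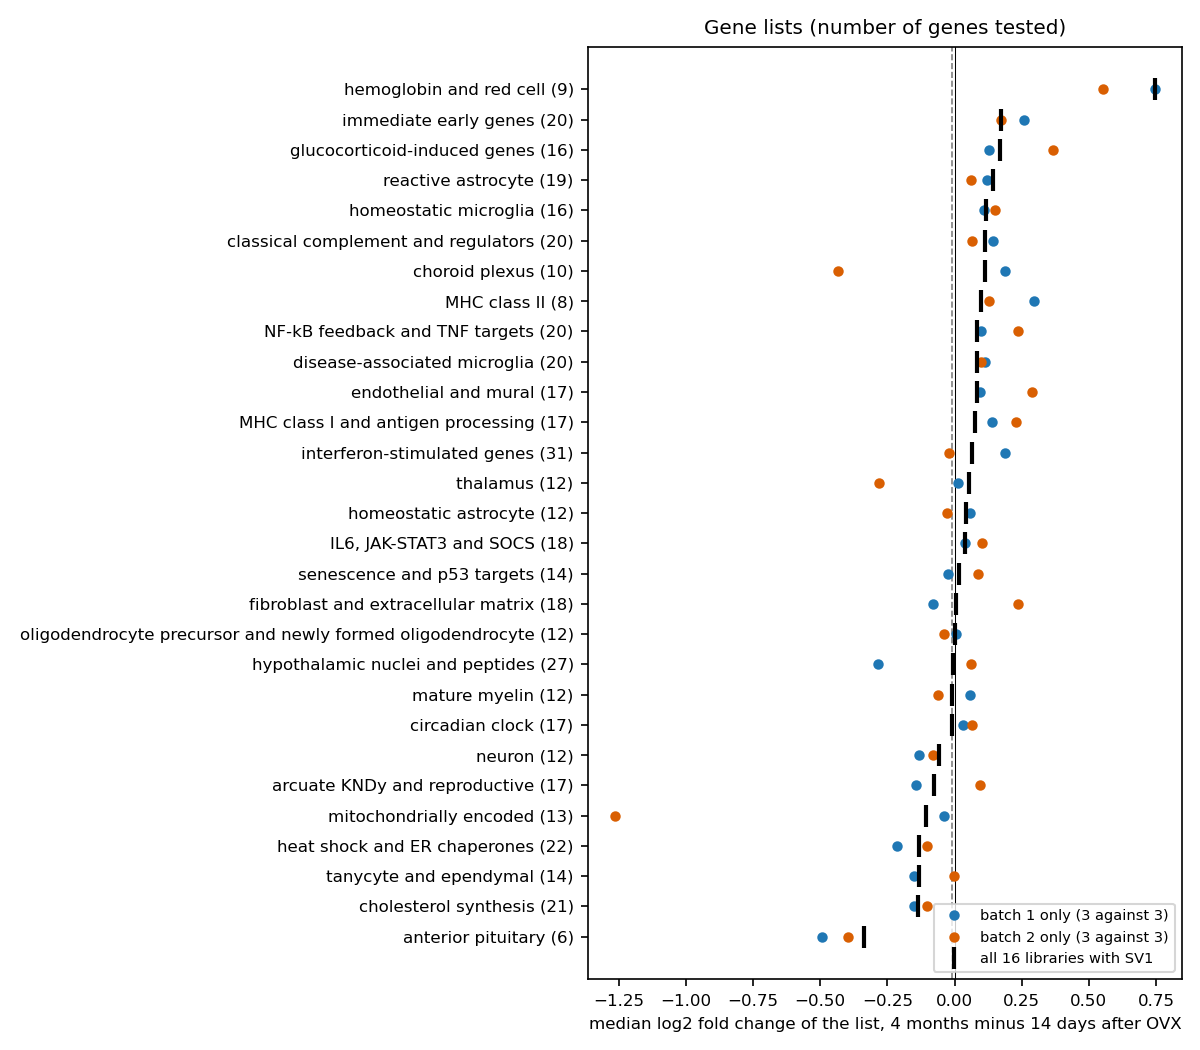
Median log2 fold change (4 months minus 14 days after OVX, x axis) of each of the 29 gene lists (rows, with the number of genes tested), from all 16 PH libraries with SV1 (black ticks) and within batch 1 and batch 2 alone (dots), with the median of all genes, -0.0077, as a dashed line. The red cell list is highest at 0.75 and the pituitary list lowest at -0.34, and choroid plexus and mitochondrial genes differ most between the batches.

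Genes of neighbouring tissue were looked up because the edges of a dissection vary. Growth hormone (*Gh*) ranged from 38.3 to 308 (median 175) at 14 days and from 22.3 to 51.2 (median 24.7) at 4 months, where most libraries lay near the floor. Prolactin (*Prl*) ranged from 61 to 488 (median 169.9) and from 20.6 to 39.6 (median 31.1), with no overlap, and its log2 fold change was -2.83 (SE 1.11) against -2.74 (SE 0.80) for *Gh*. Neither was called, with unadjusted *P* values of 0.00476 for *Gh* and 0.0249 for *Prl*. In the intact PH libraries *Gh* ranged from 22.2 to 832 and *Prl* from 20.9 to 2919, from the floor to above every PH library after OVX. Only 6 of the 11 anterior pituitary genes could be tested, 2 of them lower at an unadjusted *P* under 0.05, beside 2.01% of all genes. The list summed to 711 to 1805 at 14 days and 583 to 1208 at 4 months. *Ttr*, the main transcript of the choroid plexus, varied from 489.6 to 37150.2 at 14 days and from 705 to 70532 at 4 months, and none of the 10 choroid plexus genes had an unadjusted *P* under 0.05. Of 12 thalamus genes 1 was lower at an unadjusted *P* under 0.05, *Calb2* at -0.21 (SE 0.094). Of 14 genes of tanycytes and ependymal cells 1 was lower, the tanycyte collagen *Col23a1* at -0.32 (SE 0.087). *Col23a1* overlapped between the times, and its lowest value, 353, was that of replicate 5 at 14 days. Its difference was -0.34 in batch 1 but 0.31 in batch 2, and -0.014 with batch in place of SV1. Of 18 fibroblast and extracellular matrix genes none had an unadjusted *P* under 0.05. The part of tissue carried over from the pituitary or other neighbours in the differences above was not tested.

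The other protein-coding genes with the smallest *P* belong to no list. On the higher side *Creb5*, a transcription factor that binds CREs, ranged from 400.3 to 642 (median 432) at 14 days and from 465 to 752 (median 665) at 4 months, at a log2 fold change of 0.55 (SE 0.11), but its 14-day maximum was replicate 5. *Epop*, which binds Polycomb complexes, stood at 0.65 (SE 0.14) and the histone methyltransferase gene *Ehmt1* at 0.36 (SE 0.081), and for *Ehmt1* the difference was 0.16 in batch 2. On the lower side *Car8*, an inactive relative of the carbonic anhydrases that binds the IP3 receptor, ranged from 863 to 1446 (median 1014) and from 596 to 828 (median 729.8), with no overlap, at -0.40 (SE 0.077). The intact libraries had *Car8* values of 845 to 1054, above the 4-month range. *Zfp953*, a zinc finger gene, did not overlap either, from 183 to 225 at 14 days to 120.3 to 154 at 4 months, at -0.44 (SE 0.10). *Tsnaxip1* stood at -0.68 (SE 0.16), and *Thap1*, a transcription factor gene mutated in a form of dystonia, at -0.34 (SE 0.10).

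For 6 of the 10 genes with the smallest *P* on the lower side, replicate 5 at 14 days had the lowest value of the 12 libraries, although the other 14-day libraries were the higher group. *Slc7a10*, an amino acid transporter of astrocytes, was 766 there and 1195 to 2071 at 4 months, with a log2 fold change of -0.39 (SE 0.076) but 0.12 within batch 2. *Igsf1*, a membrane protein gene linked to central hypothyroidism, was 1887 there, at -0.54 (SE 0.13) overall and -0.082 within batch 2. For *Nrip2* and *Slc13a3* the values were -0.30 (SE 0.072) and -0.32 (SE 0.084), and 0.18 and 0.14 within batch 2. Without replicate 5 the 4 log2 fold changes were -0.41, -0.55, -0.31 and -0.34 in the same order. The others of the 6 were *Gpr17* and *Col23a1*, given above.

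When the spread was estimated over all 33 libraries of both regions, an alternative added after the data were seen that treats libraries of both regions as independent, 10 of 22966 genes were called, 0.0435%. The 8 protein-coding ones were *C4b*, *Car8*, *Serpina3n*, *Npas4*, *Btg2*, *Gpr17*, *Epop* and *Creb5*, with adjusted *P* values of 0.00059, 0.00747, 0.0155, 0.0233, 0.0319, 0.038, 0.041 and 0.041. The other 2 were the noncoding *9630013A20Rik* at 0.00476 and *Mir670hg*, a microRNA host gene, at 0.0319. *Pisd-ps1* was not called there, at an adjusted *P* of 0.419. With batch in place of SV1 and replicate 5 at 14 days left out, also added later, the protein-coding calls were *C4b*, *Npas4* and *Nr4a1*, with adjusted *P* values of 0.000396, 0.0379 and 0.0411.

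The same times were compared in the preoptic area (POA), the thermoregulatory region in front of the PH, to see where the PH differs. In the POA, 3 of 22966 genes were called, 0.0131%, in the fit over all 33 libraries. None of the 3 was called in the main PH fit, but all 3 were called for the PH in that same fit over 33 libraries. *Btg2* was higher in the POA (log2 fold change 0.95, adjusted *P* = 5.22e-05), from 378 to 532 at 14 days to 774 to 962 at 4 months, with no overlap. *Npas4* was also higher (0.91, adjusted *P* = 0.031) and *9630013A20Rik* lower (-0.86, adjusted *P* = 0.0177), beside 0.95 and -0.99 in the PH. *C4b* had a log2 fold change of 0.49 (SE 0.12) in the POA, where it ranged from 1255 to 3054 at 14 days and from 1752 to 3519.7 at 4 months, with overlap. *Pisd-ps1* stood at 1.02 there.

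No difference between the regions passed the test. In the limma interaction over all 33 libraries 0 of 22966 genes (0%) were called. An unadjusted *P* under 0.05 was found for 580, fewer than uniform *P* values would give, so the single genes below are given as values only. This fit treats the libraries as independent, although PH and POA were taken from the same females, and the labels do not say which libraries share a mouse. With same-numbered PH and POA libraries as a block, added after the data were seen, 0 protein-coding genes were called by limma and 432 had an unadjusted *P* under 0.05. For *C4b* the PH exceeded the POA by 0.46 (SE 0.18), with an unadjusted *P* of 0.0138. For *Serpina3n* it exceeded the POA by 0.49 (unadjusted *P* = 0.00116), where its log2 fold change was 0.079. *Fos* had -0.29 for the PH and 0.47 for the POA, an interaction of -0.75 (unadjusted *P* = 0.0306). The 5 smallest *P* values of the interaction belonged to *Gm34066*, *Gm12264*, *Gm13919*, *Gm5879* and *Utp20*. *Gm34066*, a predicted protein-coding gene, ranged from 51.5 to 68 at 14 days and from 84.2 to 156 at 4 months in the PH, with no overlap, a log2 fold change of 0.86 that was -0.48 for the POA. The long noncoding RNA *Gm12264* had 0.43 for the PH against -0.34 for the POA, and *Gm13919* had 0.85 against -0.15. *Utp20*, a ribosome assembly factor, stood at -0.32 against 0.27. *Gm5879* was too low to be tested in the PH alone.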

How the data were processed

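Per the methods, RNA of flash-frozen dissected tissue was made into KAPA stranded mRNA libraries and sequenced in paired ends. The submitters' processing notes name kallisto, DESeq2 and the genome build mm39. What the authors deposited is a single table of normalized signal per gene, linear, not whole-numbered and with a floor of 22.1, and how it was scaled is not given in the sources used here. A count test therefore could not be used, and depth and counting error are unknown.

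Rows without a gene symbol (1259, 0.199% of the signal) were left out. Values were analysed as log2 without a pseudocount, after a filter at 2 times the floor in at least 4 PH libraries. The main test was limma (3.58.1, with statmod 1.5.0, in R 4.3.3) with a mean-variance trend and robust estimates, on the 3 PH groups and SV1 (5 rounds of surrogate variable analysis). *P* values are two-sided and adjusted by Benjamini-Hochberg over all 21956 genes. The interaction with the POA was fitted by limma over 33 libraries. The script was tested on simulated data. Positions, gene types and promoters are from GENCODE M39 (GRCm39), a later annotation than the authors' own. Of the named rows, 972 were not in it. Some items are not reported here. Figures were drawn with matplotlib 3.10.9.

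Named genes were the protein-coding genes called or, to 10 in each direction, with the smallest *P*, called genes of other types, the 3 members with the smallest *P* and other members of each list, fixed glial and reproductive genes, and the 5 smallest interaction *P* values. The lists, the members and this rule were chosen with earlier results of these data known, and genes named outside it were chosen after their values were seen. Alternatives covered covariates, libraries, the filter, pseudocounts, centring, the variance estimate, the replicate number as a block and each library left out.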

Additional observations from a re-analysis of the deposited data

Results flagged for a closer look

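In groups of 4 to 6 libraries, the highest or lowest value was tested for its distance from the rest (Dixon's 95% criterion). Of 108 such tests 11 passed, where chance would give about 5.4, and 5 of the 11 were replicate 5 at 14 days. That library had a sum of deposited values of 72.95 in mega units (nearest 52.71), a mitochondrial share of 33.43% (nearest 13.38%), and values of 91.61 for *Slc4a1* (nearest 46.33), 1287 for *Gpr17* (nearest 2363) and 538.4 for *Esr1* (nearest 860.8). At 4 months, *Ehmt1* reached 1657 in replicate 3 (nearest 1343) and the second row of *Gm28040* reached 325.7 in replicate 5 (nearest 173.7). Among intact libraries, replicate 1 had a sum of 54.49 in mega units (nearest 49.98), a *Serpina3n* value of 996.1 (nearest 819.6) and a *Ptgs2* value of 157.3 (nearest 71.96), and replicate 4 had an *Apold1* value of 499.4 (nearest 285.2). The cause of these values was not tested.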

How the results depend on the processing

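The count of 1 protein-coding gene called stayed at 1 with each of the 16 libraries left out (range 1 to 1). It was 0 in limma with batch in place of SV1 (1098 protein-coding genes at an unadjusted *P* under 0.05), with no covariate (795), in batch 2 alone (365) and without the filter on low values (860). It was 2 with the floor level and batch (*C4b* and *Npas4*), 3 in batch 1 alone (*C4b*, *Gh* and *Ccl21d*), 2 when genes of all types were counted, 8 with the spread of all 33 libraries and 3 with batch and without replicate 5 at 14 days, and the cause was not tested. The count for the PH against the POA was 0 in limma in all 6 settings, replicate blocks included, with 297 to 553 protein-coding genes at an unadjusted *P* under 0.05. Same-numbered libraries deviated together (correlation over 0.1) in 4 of 6 pairs, at -0.18 to 0.32, and 3 of 6 correlated best with their own number, so the number was not taken as a pairing. Between PH and POA, 10 of 12 same-numbered pairs were over 0.1 (-0.32 to 0.44) and 6 of 12 correlated best with their own number. With a replicate block and SV1 the count was 2 (*C4b* and *Gh*), and with a replicate block without SV1 it was 0 (887 at an unadjusted *P* under 0.05). Of 567 log2 fold changes under alternatives for the 21 genes with the smallest *P*, 5 changed sign, and of 3510 for the 130 other named genes 139 did. Unknown depth, the floor and 6 libraries a group limit what could be detected.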
